A study of Mus musculus with 23 samples.

Results

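Antibodies reach the brain from blood in larger amounts when they are built to bind a receptor on the endothelial cells of brain capillaries. Beside the transferrin receptor (gene Tfrc) and CD98hc (gene Slc3a2), 8 other genes encode receptors or receptor subunits that have been proposed for such transport, and their RNA is described here across the cells of the mouse brain. The genes were taken by symbol: Insr, Igf1r, Igf2r, Lrp1, Lrp8, Tmem30a, Bsg and Lepr. They are 8 of the 32285 genes in the count matrix, and none of them is the target of an antibody of the study.

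Single cells were sorted by the AF647 dye carried by an antibody that had been injected intravenously at 45 mg/kg, 24 h earlier, into mice that the study's design gives as 12 weeks old and the sample labels as 3.3 months old. ATV-TfR, an antibody transport vehicle for the transferrin receptor, went into TfR mu/hu KI mice. ATV-CD98hc went into CD98hc mu/hu KI mice, and control IgG into C57BL/6J mice, so that treatment and genotype cannot be told apart. All groups shared the dissociation of the brain (without olfactory bulb, cerebellum, pons and medulla) in the presence of actinomycin D and anisomycin. Each treatment had 2 pools of cells from 1 male and 1 female mouse, and each pool was sorted into negative, low, medium and high bins, with limits set on the ATV-TfR cells. The negative bin of control IgG was 1 library, of replicate 2, so that 23 libraries formed 12 groups.

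The kept cells numbered 233476, from 519 to 19340 per library, and the median cell of a library had 2178 to 4968 UMIs. Whole libraries held 1861238 to 90307818 UMIs. Marker lists named 14 classes, and 1.72% of the cells stayed unnamed. Endothelial-like cells were the largest class (97998 cells, 42.0%), followed by astrocyte-like cells (92042 cells, 39.4%). The negative bins of the ATVs held few endothelial-like cells, 211 over both ATV-TfR libraries and 145 over both ATV-CD98hc libraries. The medium bins of control IgG held 27 and 42, and its high bins, with 10 and 15, were below the minimum of 20 cells and were not tested. Libraries shared at most 0.963% of their cell barcodes.

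As background, the members are of several kinds. Insr (insulin receptor) and Igf1r (insulin-like growth factor 1 receptor) are tyrosine kinases that brain endothelium uses both to sense and to carry their hormones, and antibodies to the insulin receptor were among the earliest brain shuttles. Igf2r is the cation-independent mannose 6-phosphate receptor, which sorts lysosomal enzymes and clears insulin-like growth factor 2. Lrp1 and Lrp8 belong to the LDL receptor family: Lrp1 is a large endocytic receptor of many ligands, apolipoprotein E among them, and Lrp8 binds reelin and selenoprotein P. Tmem30a is the subunit that brings P4-ATPases, the flippases of membrane phospholipids, to the cell surface. Bsg (basigin, CD147) escorts monocarboxylate transporters to the membrane. Lepr, the leptin receptor, is known in the choroid plexus and in brain vessels for binding leptin from blood.

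Positions are given on GRCm38 with the GENCODE M21 annotation. Insr (ENSMUSG00000005534) spans chr8:3122061-3279617 on the minus strand, Igf1r (ENSMUSG00000005533) chr7:67952827-68233668 on the plus strand, and Igf2r (ENSMUSG00000023830) chr17:12682406-12769664 on the minus strand. Lrp1 (ENSMUSG00000040249) spans chr10:127538161-127621148 on the minus strand, and Lrp8 (ENSMUSG00000028613) chr4:107802261-107876840 on the plus strand. Tmem30a (ENSMUSG00000032328) spans chr9:79768943-79793507 on the minus strand, Bsg (ENSMUSG00000023175) chr10:79704491-79711969 on the plus strand, and Lepr (ENSMUSG00000057722) chr4:101717404-101815352 on the plus strand. Genes on the opposite strand overlap Insr, Igf2r (Airn), Lrp1 and Lrp8, and whether the counting used strand is not given in the sources used here.

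The promoters of Igf1r and Igf2r are shown because these 2 receptors of insulin-like growth factors moved in opposite directions with antibody signal in endothelial-like cells of ATV-TfR mice. Both sequences are the 250 bases before a RefSeq start site on GRCm38.p6, written 5′ to 3′ on the gene's strand, with each GC box (GGGCGG, searched on both strands) in capitals.
Igf1r, chr7:67952007-67952256 (plus strand): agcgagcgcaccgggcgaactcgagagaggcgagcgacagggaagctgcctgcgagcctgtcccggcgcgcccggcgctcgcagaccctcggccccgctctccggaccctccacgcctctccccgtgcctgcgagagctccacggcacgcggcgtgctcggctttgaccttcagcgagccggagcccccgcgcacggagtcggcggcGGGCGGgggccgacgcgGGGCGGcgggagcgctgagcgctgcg
Igf2r, chr17:12769707-12769956 (minus strand): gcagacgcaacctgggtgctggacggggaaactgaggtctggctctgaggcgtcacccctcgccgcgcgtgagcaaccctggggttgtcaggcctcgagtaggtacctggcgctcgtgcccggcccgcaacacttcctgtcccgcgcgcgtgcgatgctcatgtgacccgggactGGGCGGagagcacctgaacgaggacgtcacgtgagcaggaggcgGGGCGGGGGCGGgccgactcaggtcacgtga
The Igf1r window was 77.6% G and C with 42 CpG, and its GC boxes began 43 and 26 bases before the start. The Igf2r window was 69.2% G and C with 27 CpG, and its GC boxes began 75, 31 and 25 bases before the start, the last 2 of them adjacent. Over all 32851 windows of that length the median was 52.4% and 6 CpG, and 32.7% held a GC box, so both are CpG-rich windows with a common motif. RefSeq windows were matched for 6 of the 8 members, and those of Lrp1 and Lepr also held a GC box.

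The level of each member was first described by class, in CPM, the UMIs of the gene scaled to all UMIs of that class in a pool. Levels are compared between classes within 1 gene only, as a description without a test. Insr, Igf1r and Bsg were highest in endothelial-like cells, Lrp1 and Lepr in fibroblast-like cells, Igf2r in pericyte-like, Lrp8 in ependymal-like and Tmem30a in oligodendrocyte-like cells.

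**Figure D1:**
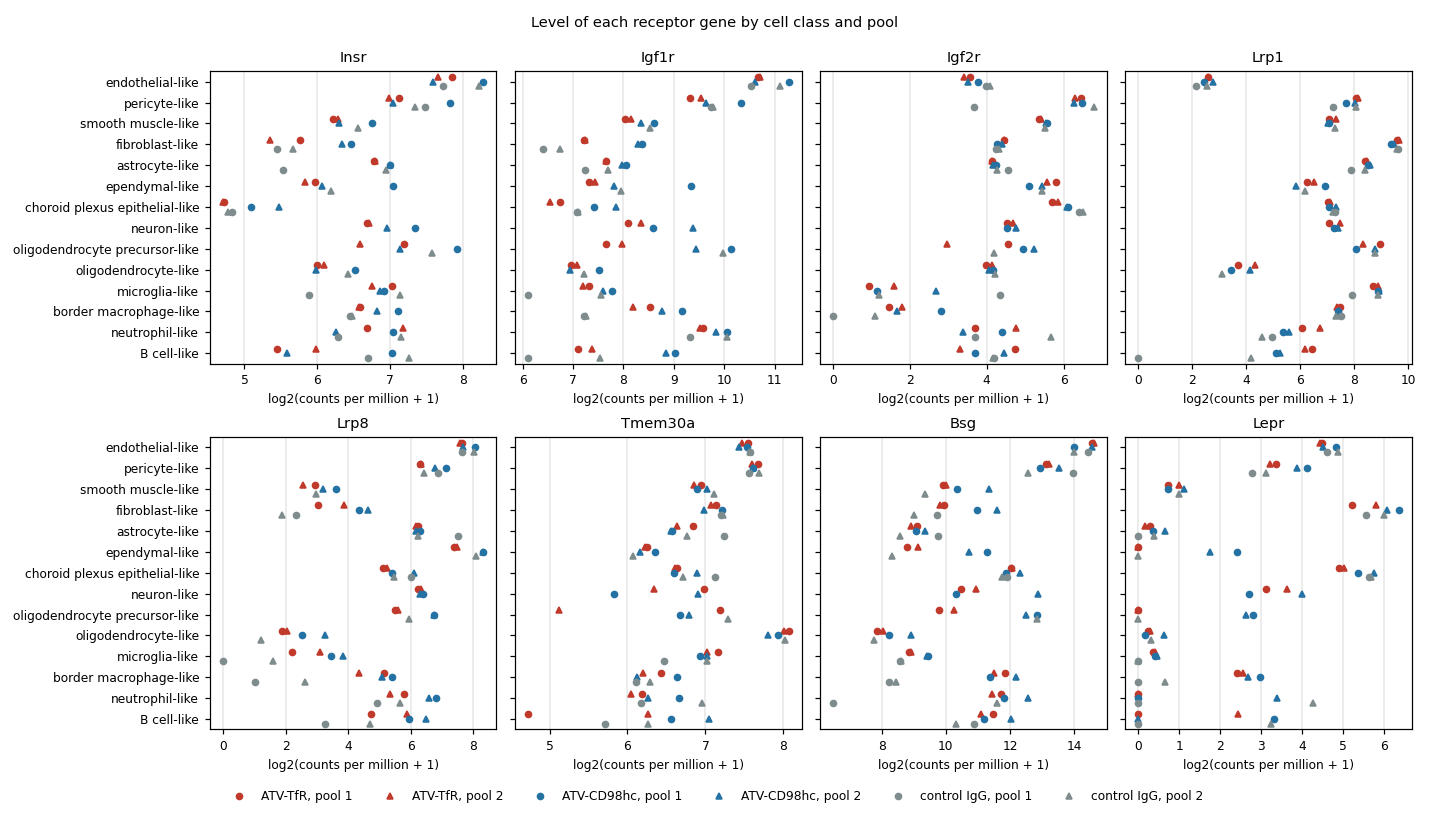
Level of each receptor gene in each of 14 cell classes, on the x axis as log2(CPM + 1), with 1 point per pool (colour for treatment, shape for pool, 4 to 6 pools per class). Bsg and Igf1r stand highest in endothelial-like cells (means of 21238 and 1839 CPM), whereas Lrp1 is lowest there (mean of 4.74 CPM).

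Among the receptors of insulin and its relatives, endothelial-like cells held 240 ± 50.4 CPM of Insr (SD, n = 6 pools). It was 162 ± 55.5 in oligodendrocyte precursor-like cells (n = 5), 159 ± 37.6 in pericyte-like cells (n = 6) and lowest in choroid plexus epithelial-like cells, at 30.1 ± 7.11 (n = 6). The pools of the leading classes overlapped, since endothelial-like values began at 192 and pericyte-like values reached 225. Igf1r was more set apart, at 1839 ± 408 CPM in endothelial-like cells (1469 to 2481) against 868 ± 225 in pericyte-like cells (642 to 1294), with no overlap. It was lowest in oligodendrocyte-like cells, at 142 ± 25.2 CPM (n = 5).

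Igf2r had another order. It was 75.0 ± 33.2 CPM in pericyte-like cells (11.8 to 109), 69.3 ± 14.8 in choroid plexus epithelial-like cells and 43.8 ± 7.68 in ependymal-like cells, and these classes overlapped. Endothelial-like cells came 12th of 14 at 12.4 ± 2.53 CPM, and border macrophage-like cells were lowest at 2.25 ± 2.04. In the negative bins alone, pericyte-like cells held 123 ± 14.8 CPM of Igf2r (n = 5 libraries) and choroid plexus epithelial-like cells 53.2 ± 9.99, so the order was clearer there.

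The receptors of the LDL family were placed differently from each other. Lrp1 was 747 ± 54.7 CPM in fibroblast-like cells (653 to 798), above all pools of microglia-like cells (423 ± 91.7, at most 485), which were followed by oligodendrocyte precursor-like (388 ± 91.9), astrocyte-like (333 ± 52.7) and pericyte-like cells (237 ± 51.6). Endothelial-like cells were last at 4.74 ± 0.809 CPM (3.40 to 5.86), under every pool of the next class, oligodendrocyte-like cells (12.98 ± 4.70). Lrp8 was 250 ± 73.4 CPM in ependymal-like cells (n = 5) and 220 ± 34.6 in endothelial-like cells, 2 classes whose pools overlapped. Endothelial-like values of Lrp8 (190 to 268) stood above those of pericyte-like cells (102 ± 24.4, at most 139).

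Tmem30a varied least over the classes. It was 250 ± 17.7 CPM in oligodendrocyte-like cells (222 to 267), 196 ± 6.62 in pericyte-like cells, 183 ± 7.58 in endothelial-like cells and 73.4 ± 5.19 in ependymal-like cells, the lowest class. Bsg was 21238 ± 3977 CPM in endothelial-like cells (16192 to 24838), above all pools of pericyte-like cells (9919 ± 3449, at most 15845). It was 4084 ± 569 CPM in choroid plexus epithelial-like cells and lowest, at 298 ± 107 CPM, in oligodendrocyte-like cells. Lepr was 58.1 ± 15.9 CPM in fibroblast-like cells and 42.2 ± 10.2 in choroid plexus epithelial-like cells, with overlap. Endothelial-like cells followed at 24.0 ± 3.31 CPM (20.6 to 28.5), above all pools of pericyte-like cells (10.2 ± 4.02).

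RNA of endothelial genes was present in the other classes, which bears on their Bsg, Igf1r and Lrp8. The 12 endothelial markers summed to 724 to 8552 CPM in pericyte-like cells of the 5 negative libraries, with the highest value in control IgG. They summed to 14045 CPM in the 1 negative library with enough oligodendrocyte precursor-like cells, but to only 26.5 to 65.1 CPM in astrocyte-like cells. Their part in the levels of those classes was not tested.

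The pools join bins whose levels differ, and the negative bins alone gave another order for some classes. Bsg there was 1419 ± 2055 CPM in pericyte-like cells (471 to 5094, n = 5 libraries), below choroid plexus epithelial-like cells at 3443 ± 788, and 11964 ± 3497 in endothelial-like cells. Igf1r was 273 ± 249 CPM in pericyte-like cells (137 to 718), which overlapped astrocyte-like cells (202 ± 25.7), and 1095 ± 637 in endothelial-like cells, near the 1151 CPM of the 1 library with oligodendrocyte precursor-like cells. Lrp8 was again highest in ependymal-like cells (209 ± 38.3 CPM), before endothelial-like cells (113 ± 83.9), although in the ATV-TfR pools and in the 1 negative library of control IgG endothelial-like cells were highest.

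By control IgG alone, 3 of the 8 members were highest in endothelial-like cells (Insr, Igf1r and Bsg). Without its replicate 2 this was 5, with Lrp8 and Tmem30a added. The remaining replicate 1 had no negative library. It held only 3 ependymal-like cells in its low and 1 in its high library, too few to be ranked. Ependymal-like and oligodendrocyte-like cells, which led for Lrp8 and Tmem30a, had levels in 5 pools, against 6 for endothelial-like cells. The count of 5 therefore cannot be read as a change in level, since a leading class was missing.

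Within the endothelial-like class, sub-clusters were named capillary-like (49188 cells), arterial-like (11353), venous-like (4786) and fenestrated-like (358), and 32313 cells stayed unnamed. The unnamed cells are left out of the levels below. Unnamed sub-cluster 10 (19003 cells) had 7 of 8 capillary markers, and Bsg among its top genes. Sub-cluster 4 (5017 cells) had pericyte genes such as Vtn, Higd1b and Rgs5 on top. Sub-cluster 7 (6147 cells) had astrocyte genes such as Slc1a2, Aldoc and Slc1a3. The levels again are a description, and they join bins in which the subtypes had unlike shares. In ATV-TfR, capillary-like cells numbered 10 and 5 in the negative and 8479 and 6834 in the high libraries. Fenestrated-like cells numbered 47 and 27 in the negative libraries and made 0% of the high ones. Levels also differed by bin within a subtype. Igf1r in arterial-like cells of ATV-TfR averaged 500 CPM in the negative and 1215 in the high bin. Igf1r was 2213 ± 336 CPM in capillary-like cells (SD, n = 6 pools), 1445 ± 289 in venous-like, 1240 ± 238 in arterial-like and 274 ± 148 in fenestrated-like cells (n = 5). Lrp8 had 257 ± 35.9 CPM in capillary-like cells, against 163 ± 32.1 in arterial-like and 160 ± 20.9 in venous-like cells, which did not differ beyond their spread. Bsg was 20878 ± 3132 CPM in capillary-like, 19305 ± 3940 in venous-like and 17731 ± 3478 in arterial-like cells, within each other's spread, and 1974 ± 1331 in fenestrated-like cells.

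Fenestrated-like cells, a type known for lacking a tight barrier, were highest for 4 other members. Igf2r was 61.4 ± 15.1 CPM there, against 11.3 ± 1.3 to 13.9 ± 3.0 in the other named subtypes. Insr was 339 ± 95.4 CPM there, 281 ± 38.6 in capillary-like, 223 ± 52.5 in venous-like and 170 ± 29.8 in arterial-like cells. Lepr was lowest in arterial-like cells, at 8.7 ± 4.3 CPM against 27.6 ± 3.4 in capillary-like cells. Lrp1 was 2.6 ± 0.3 CPM in capillary-like and 25.4 ± 21.96 in fenestrated-like cells. Tmem30a differed least, from 183 CPM in arterial-like to 211 in fenestrated-like cells.

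**Figure D2:**
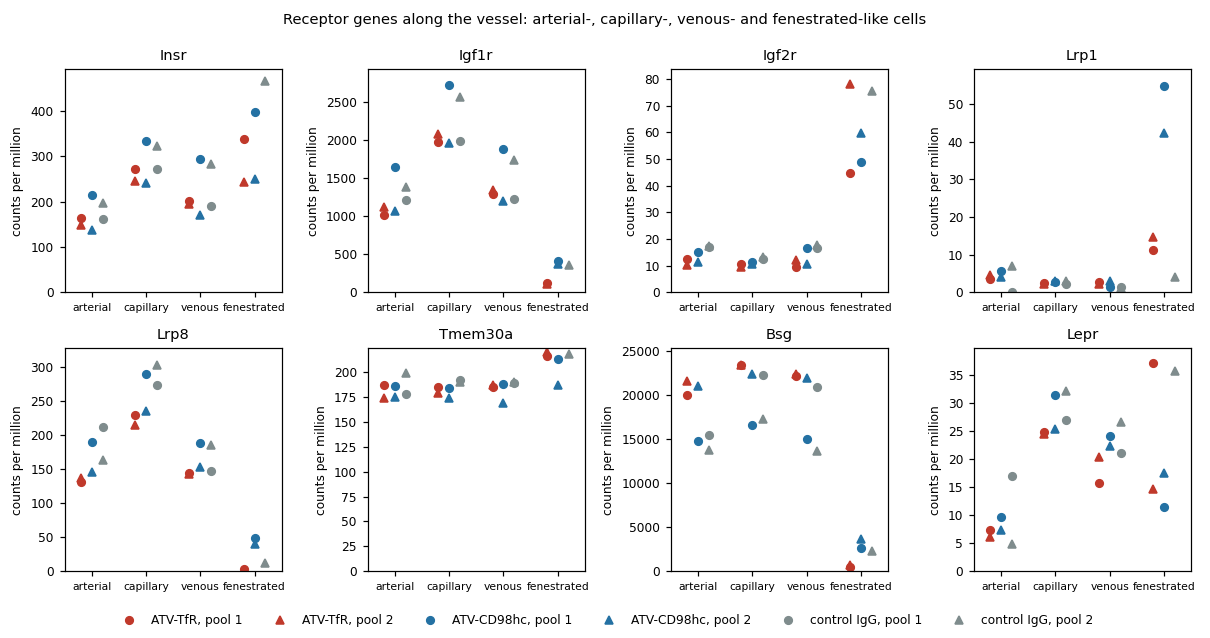
Level of each receptor gene in 4 named subtypes of endothelial-like cells, in CPM, with 1 point per pool (colour for treatment, shape for pool). Among these 4, capillary-like cells have the highest mean for Igf1r, Lrp8, Bsg and Lepr, and fenestrated-like cells for Insr, Igf2r, Lrp1 and Tmem30a. Unnamed endothelial-like cells are not shown.

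The main comparison asked whether receptor RNA differed between endothelial-like cells that carried much antibody and those that carried none. Lrp8, Igf1r, Bsg and Lepr were higher in the high than in the negative bin of both ATVs. Igf2r was lower in ATV-TfR and Lrp1 lower in ATV-CD98hc, while Insr and Tmem30a passed the test in neither. The test was edgeR's quasi-likelihood test on summed UMIs, with a gene called at a Benjamini-Hochberg adjusted p below 0.05 over 15748 genes. In ATV-TfR it called 5 of the 8 members, 4 higher and 1 lower, where 11.6% of all genes were called (5.11% higher, 6.52% lower). These were 804 genes higher and 1026 lower, against 289 and 1266 with RLE scaling and 303 and 1806 with DESeq2. In ATV-CD98hc it called 5 of 8, again 4 higher and 1 lower, where 6.85% of all genes were called (2.24% higher, 4.62% lower). Here 352 genes were higher and 727 lower, against 169 and 883 with RLE scaling and 181 and 1617 with DESeq2. The median change over all genes was 0.25 on the log2 scale in both, and near 0 with another scaling (a shift of -0.30 and -0.25), so changes are best read against it.

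**Figure D3:**
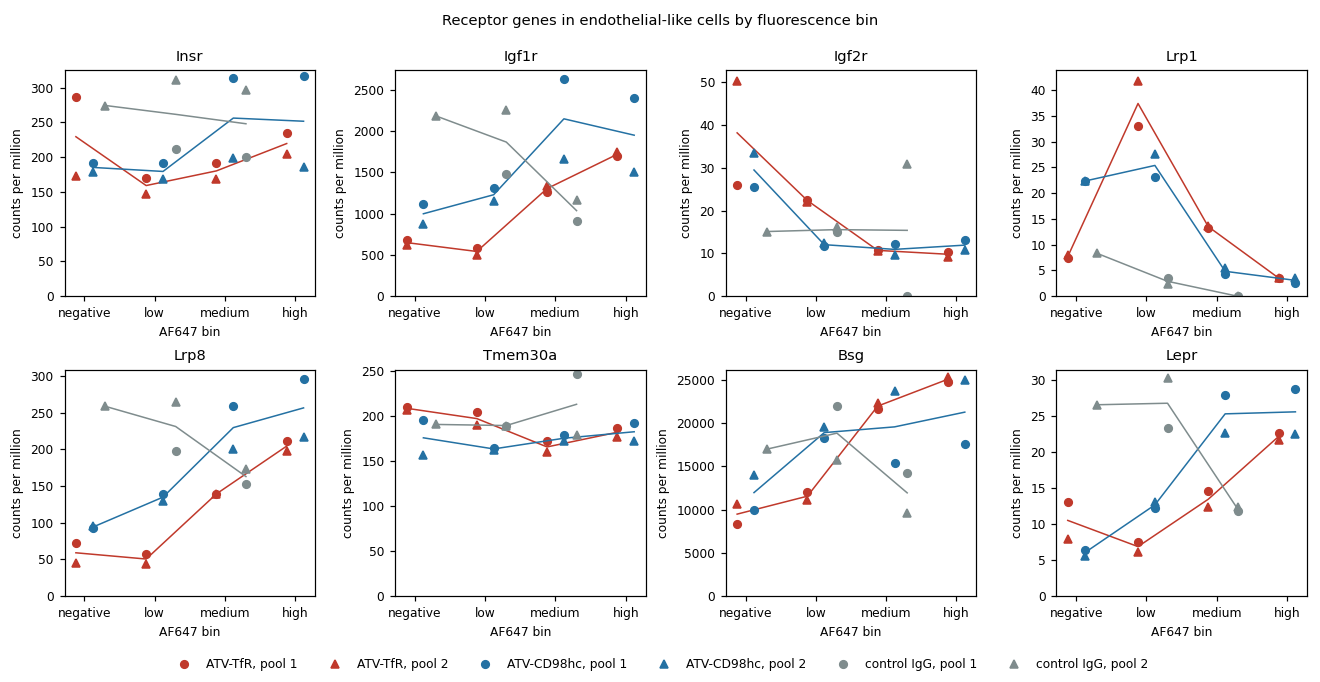
CPM of each receptor gene in endothelial-like cells by antibody bin, with 1 point per library (colour for treatment, shape for pool) and lines through the means of a treatment. In ATV-TfR, Lrp8 goes from 45.1 to 72.5 CPM in the negative bin to 198 to 211 in the high bin, and Igf2r from 26.0 to 50.4 down to 9.19 to 10.5.

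Lrp8 had the clearest rise. Its level in pools 1 and 2 of ATV-TfR was 72.5 and 45.1 CPM in the negative bin, 57.5 and 43.1 in the low, 139 in both medium libraries, and 211 and 198 in the high bin. In ATV-CD98hc it was 92.7 and 94.8, then 139 and 130, 258 and 201, and 296 and 217 CPM. Negative and high libraries did not overlap in either, and the low bin of ATV-TfR stayed at the negative level. The rise was 2.07 ± 0.24 on the log2 scale (SE; adjusted p = 7.4e-07, edgeR) in ATV-TfR and 1.69 ± 0.25 (adjusted p = 4.56e-05) in ATV-CD98hc. Control IgG had 259 CPM in its negative library and 198 and 264 in its low ones, all near the high bins of the ATVs. Its medium libraries, of 27 and 42 cells, were lower, at 153 and 173 CPM.

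Igf1r followed the same bins. In ATV-TfR it was 674 and 624 CPM in the negative, 579 and 505 in the low, 1265 and 1339 in the medium, and 1693 and 1741 in the high bin. In ATV-CD98hc it was 1119 and 876, 1307 and 1148, 2631 and 1660, and 2398 and 1497 CPM. The pools of the ATV-CD98hc high bin differed 1.60-fold, yet both lay above the negative libraries. The rise was 1.71 ± 0.25 (adjusted p = 2.01e-05, edgeR) and 1.19 ± 0.24 (adjusted p = 0.00231). The negative library of control IgG had 2180 CPM, its low ones 1482 and 2247, and its medium ones 906 and 1165.

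Bsg in ATV-TfR was 8275 and 10655 CPM in the negative, 11992 and 11092 in the low, 21605 and 22325 in the medium and 24812 and 25348 in the high bin. In ATV-CD98hc it was 9903 and 14008, 18231 and 19572, 15432 and 23694, and 17545 and 24994 CPM, so that pool 1 reached its level in the low bin. The rise was 1.72 ± 0.28 (adjusted p = 0.000122, edgeR) and 1.10 ± 0.28 (adjusted p = 0.0139). Without replicate 1 of ATV-TfR the first lost its call (1.42, adjusted p = 0.087), and 3 of 15 alternatives ended the call in ATV-CD98hc, among them RLE scaling (0.82, adjusted p = 0.073).

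Lepr rested on few UMIs, 10 in the negative bin of ATV-TfR and 3 in that of ATV-CD98hc. In ATV-TfR it was 13 and 7.96 CPM in the negative, 7.54 and 6.15 in the low, 14.5 and 12.3 in the medium and 22.6 and 21.7 in the high bin, a change of 1.33 ± 0.35 (adjusted p = 0.0125, edgeR). That call was lost in 9 of 15 alternatives. In ATV-CD98hc its levels were 6.40 and 5.58, 12.2 and 13.1, 27.9 and 22.7, and 28.7 and 22.4 CPM. The adjusted p was 0.00542, and the ratio of high to negative was 4.15 with a counting interval of 1.42 to 20.2. This call was lost in 4 of 15 alternatives, among them leaving out either ATV-CD98hc pool (adjusted p = 0.355 and 0.0599). Lepr was called higher in the high than in the low bin in both ATVs, by 1.99 ± 0.30 in ATV-TfR (adjusted p = 2.05e-05, edgeR) and 1.24 ± 0.18 in ATV-CD98hc (adjusted p = 1.35e-05).

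Igf2r was lower in cells with much antibody. In ATV-TfR it was 26.0 and 50.4 CPM in the negative, 22.6 and 22.2 in the low, 10.8 and 10.7 in the medium and 10.5 and 9.19 in the high bin, without overlap, and fell by 1.59 ± 0.32 (adjusted p = 0.00137, edgeR; 33 UMIs in the negative bin). The call was lost without replicate 2 of ATV-TfR (-1.09, adjusted p = 0.37). In ATV-CD98hc the levels were 25.6 and 33.5 against 13.1 and 10.8 CPM, a difference of -1.02 ± 0.44 that was not called (adjusted p = 0.19) but was called by DESeq2 (-1.27, adjusted p = 0.0276).

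Lrp1 peaked in the low bin of ATV-TfR. It was 7.43 and 7.96 CPM in the negative, 33.0 and 41.8 in the low, 13.3 and 13.7 in the medium and 3.51 and 3.58 in the high bin. The low bin was above the negative by 2.27 ± 0.50 (adjusted p = 0.0161, edgeR; 1 of 8 members called, against 2.05% of all genes), and high against negative was -0.80 ± 0.60 (adjusted p = 0.426). In ATV-CD98hc it was 22.4 and 22.3, 23.2 and 27.6, 4.23 and 5.45, and 2.53 and 3.63 CPM, and fell by 2.59 ± 0.56 (adjusted p = 0.00386; 11 UMIs in the negative bin). This call was lost in 3 of 15 alternatives, among them without replicate 1 of ATV-CD98hc (-2.38, adjusted p = 0.216).

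Markers of 2 classes with much Lrp1, astrocytes and fibroblasts, were present in endothelial-like cells. The 10 astrocyte markers summed to 178 to 356 CPM in the negative, 1353 to 2167 in the low, 559 to 744 in the medium and 97 in the high libraries of ATV-TfR. The 8 fibroblast markers summed to 1339 to 1789 CPM in its negative, 1625 to 1677 in its low and 20 to 25 in its high libraries. In ATV-CD98hc they summed to 684 to 1216 CPM in the negative, 416 to 460 in the low and 14 to 17 in the high libraries. The astrocyte sums of ATV-CD98hc were 335 to 713 CPM in the negative, 765 to 1085 in the low and 65.5 to 71.8 in the high libraries. From negative to low, Lrp1 was called higher in ATV-TfR and was not called in ATV-CD98hc. Microglia-like and pericyte-like cells also held much Lrp1. In the negative, low and high libraries of ATV-TfR, microglia markers summed to 264 and 173, 170 and 122, and 72.5 and 93.7 CPM. In those of ATV-CD98hc, microglia sums were 109 and 151, 247 and 288, and 116 and 117 CPM. Pericyte markers summed to 307 to 873, 158 to 225 and 553 to 570 CPM in ATV-TfR. In ATV-CD98hc the pericyte sums were 499 to 1411, 330 to 375 and 413 to 576 CPM. The part of all these markers in the changes of Lrp1 was not tested. In control IgG, which had low but no high libraries to test, Lrp1 was lower in the low bin, at 8.31 CPM in the negative and 3.49 and 2.32 in the low bin (-1.53 ± 0.36, adjusted p = 0.0112, edgeR; the 1 member called, against 4.43% of all genes), beside fibroblast markers at 122 against 29 to 44 CPM. Every test against the negative bin of control IgG has 1 library on that side, whose spread was not measured and is assumed to be that of the other groups.

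Insr and Tmem30a did not pass the test. Insr was 286 and 172 against 234 and 205 CPM in ATV-TfR, which overlapped (0.23 ± 0.26, adjusted p = 0.62, edgeR; -0.08 with RLE scaling). In ATV-CD98hc it was 192 and 179 against 317 and 186 CPM (0.66 ± 0.28, adjusted p = 0.193). With the pool as a block, which the shared animals of a pool allow, the latter was called (0.68, adjusted p = 0.00698), making 6 members. Of all 15748 genes, 1672 were called with that block and 1079 without it. Tmem30a was 210 and 207 against 187 and 177 CPM in ATV-TfR (0.11 ± 0.17, adjusted p = 0.724; -0.19 with RLE scaling) and 195 and 156 against 192 and 172 CPM in ATV-CD98hc (0.27 ± 0.19, adjusted p = 0.469).

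Across the 4 bins, the slopes per bin gave the same counts. In ATV-TfR, Lrp8 (0.78), Igf1r (0.65), Bsg (0.62), Lepr (0.50) and Igf2r (-0.57) were called, 5 of 8 members against 14.4% of all genes. In ATV-CD98hc, Lepr (0.80), Lrp8 (0.60), Igf1r (0.45), Bsg (0.35) and Lrp1 (-1.002) were called, 5 of 8 against 9.15%.

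In both ATVs the step from the low to the medium bin called more members than the other steps. From low to medium in ATV-TfR, Lrp8 (1.54), Igf1r (1.35) and Bsg (1.02) rose and Lrp1 fell by 1.37, 4 of 8 members against 5.64% of all genes. From medium to high, Lepr (0.95) and Lrp8 (0.79) rose and Lrp1 fell by 1.69, 3 of 8 against 8.8%. In ATV-CD98hc the step from low to medium called Lepr (1.15), Igf1r (0.95), Lrp8 (0.92) and Lrp1 (-2.24), 4 of 8 against 10.6%. Its steps from negative to low (0.616% of all genes called) and from medium to high (2.53%) called no member. With the better filled low bin as the reference, chosen after seeing the data, 7 of 8 members were called in ATV-TfR (all but Tmem30a, against 19.7% of all genes) and 5 of 8 in ATV-CD98hc (Insr, Igf1r, Lrp1, Lrp8 and Lepr, against 15.3%).

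**Figure D4:**
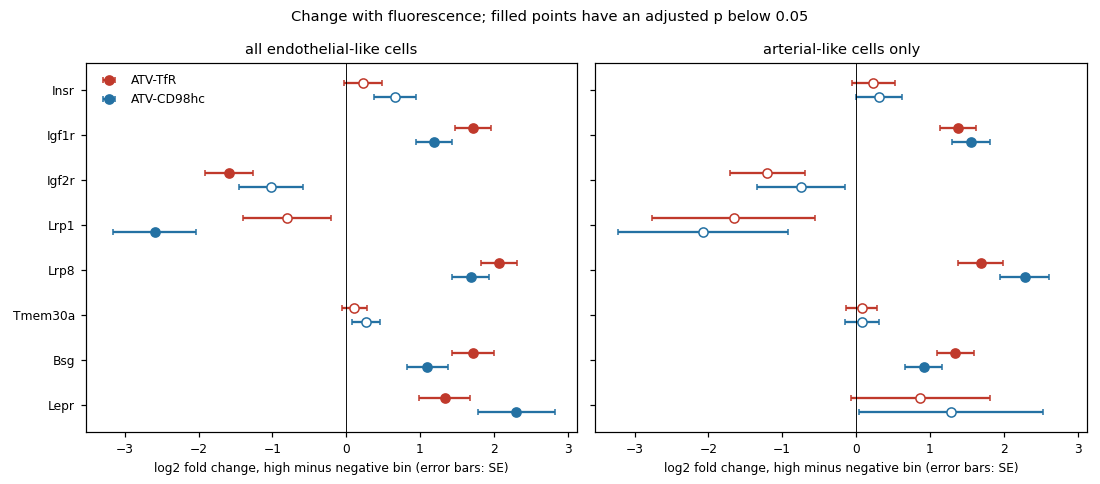
Log2 fold change from the negative to the high bin for each receptor gene in all endothelial-like cells (left) and in arterial-like cells only (right), by ATV. Bars are 1 SE and filled points have an adjusted p below 0.05, with Lrp8, Igf1r and Bsg filled and above 0 for both ATVs in both panels.

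The make-up of the class changed with the bins, which concerns every change between bins in this class. In ATV-TfR, capillary-like cells made 5.9% to 7.9% of the endothelial-like cells of the negative libraries and 44.5% to 51.0% of the high ones. Arterial-like cells made 45.2% to 48.2% and 9.2% to 9.4%, and fenestrated-like cells 31.8% to 37.3% of the negative ones. Unnamed cells made 7.94% to 11.8% of the negative and 35.4% to 41.9% of the high ones. The unnamed share in ATV-CD98hc was 12.0% to 27.4% in the negative, 55.2% to 73.0% in the low and 7.56% to 46.3% in the high libraries. In ATV-CD98hc, capillary-like cells went from 11.3% to 21.7% in the negative to 39.0% to 78.6% in the high libraries, arterial-like cells from 41.9% to 56.6% down to 7.73% to 8.78%, and fenestrated-like cells from 9.64% to 12.9% down to 0.0516% to 0.0669%. In ATV-TfR, clusters 16 and 19 held 35.1% and 44.5% of the negative cells, and clusters 25, 32, 23 and 24 held 24.7%, 22.2%, 16% and 12% of the high cells. In ATV-CD98hc, clusters 19 and 23 held 43.4% and 17.9% of the negative cells, and clusters 24, 25 and 32 held 24.1%, 22.3% and 15.8% of the high cells. The 12 endothelial markers summed to 21922 to 22621 CPM in the negative and 31333 to 31456 in the high libraries of ATV-TfR, and to 23177 to 24720 and 30610 to 32649 in those of ATV-CD98hc.

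Within arterial-like cells alone, a comparison added after seeing the data, Lrp8, Igf1r and Bsg were called higher in both ATVs. In ATV-TfR, Lrp8 went from 47.9 to 56.4 CPM in the negative to 158 to 159 in the high libraries, a rise of 1.69 ± 0.30 (adjusted p = 0.00023, edgeR). Igf1r went from 429 to 570 CPM to 1170 to 1261 (1.38 ± 0.25, adjusted p = 0.000243), and Bsg from 7466 to 11186 to 21605 to 22882 (1.35 ± 0.25, adjusted p = 0.00034). In ATV-CD98hc the rises were 2.28 ± 0.34 for Lrp8 (adjusted p = 2.59e-05), 1.56 ± 0.26 for Igf1r (adjusted p = 0.000143) and 0.91 ± 0.25 for Bsg (adjusted p = 0.0273). These were 3 of 8 members in each, against 6.30% and 3.80% of the 12328 genes tested, from 98 and 73 negative cells. Igf2r (-1.20 in ATV-TfR, adjusted p = 0.197), Lepr (0.87 and 1.29) and Lrp1 (-1.66 and -2.07, with SEs of 1.10 and 1.16) were not called there, which does not show that they were unchanged. In capillary-like cells alone, Lrp1 was the 1 member called. It was lower in the high than in the medium bin of ATV-TfR (-2.14, adjusted p = 0.0027, edgeR, against 2.57% of 14363 genes) and lower in the high than in the low bin of ATV-CD98hc (-2.87, adjusted p = 0.0036, against 3.31%). The arterial-like cells of the control IgG negative library had 148 CPM of Lrp8, 1300 of Igf1r and 13909 of Bsg.

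No member was called for the difference of the changes, where 26 genes (0.165%) were called and 981 had an unadjusted p below 0.05 in edgeR, and DESeq2 called 68 genes and no member. The interval of the difference, ATV-TfR minus ATV-CD98hc on the log2 scale at 95% confidence, was -0.31 to 1.08 for Lrp8, -0.14 to 1.20 for Igf1r, -0.15 to 1.38 for Bsg and -1.19 to 0.32 for Insr. It was -0.66 to 0.34 for Tmem30a, -1.55 to 0.41 for Igf2r and -2.42 to 0.48 for Lepr. For Lrp1 it was 0.39 to 3.21, with an adjusted p of 0.658.

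The treatments were compared over pools, all bins together. No gene of 16555 was called between any pair of treatments (0%) by edgeR, while 1156 (ATV-TfR against control IgG), 725 (ATV-CD98hc against control IgG) and 348 (between the ATVs) had an unadjusted p below 0.05 and DESeq2 called 178, 92 and 11. The largest member difference was that of Igf2r, at -0.51 ± 0.16 in ATV-TfR against control IgG (adjusted p = 0.519, edgeR) and -0.40 ± 0.16 in ATV-CD98hc (adjusted p = 1). The mix of bins differs between treatments. With each bin given equal weight in the fit over bins, Lrp8 (-0.80 ± 0.12, adjusted p = 0.000174, edgeR) and Igf1r (-0.70 ± 0.12, adjusted p = 0.00117, edgeR) were lower in ATV-TfR than in ATV-CD98hc, which is 2 of 8 members against 2.71% of all genes. That fit takes the bins of a pool as separate libraries, although they share animals. Its SEs and adjusted p values therefore do not measure the spread between the 2 pools of an ATV. Within the negative bin, set against the 1 control IgG library, Lrp8 (-2.20 and -1.55 in ATV-TfR and ATV-CD98hc), Igf1r (-1.85 and -1.20) and Lepr (-1.38 and -2.20) were called lower in both ATVs, with the spread of that single library assumed from the other groups. That is 3 of 8 members, against 5.07% of all genes in ATV-TfR and 2.12% in ATV-CD98hc, and the share of capillary-like cells was 58.8% in that control library.

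Pericyte-like cells, which lie along the capillaries, had larger shares called than endothelial-like cells, both of the members and of all genes. In ATV-TfR 7 of 8 members were called, where 24.1% of all genes were called, and in ATV-CD98hc 7 of 8 against 21.7%. Endothelial-like cells had 5 of 8 in each, where 1830 and 1079 of 15748 genes were called. The counts of members cannot be read apart from these shares. Bsg went from 471 to 491 CPM in the negative to 14207 to 14553 in the high libraries of ATV-TfR (5.01 ± 0.44, adjusted p = 2.92e-09, edgeR). Lrp8 went from 3.13 to 3.85 CPM to 125 (5.21 ± 0.30), and Igf1r from 162 to 177 CPM to 958 to 1064 (2.69 ± 0.30). Lepr (2.34) and Insr (0.90) were also called higher. Igf2r fell from 115 to 122 CPM to 59.7 to 64.5 (-0.82 ± 0.24, adjusted p = 0.0126), and Lrp1 from 388 to 434 CPM to 194 (-0.97 ± 0.22, adjusted p = 0.00169). Tmem30a was 0.01. In ATV-CD98hc the same 7 members were called, with Bsg at 4.73, Igf1r at 3.09, Insr at 1.12, Igf2r at -0.84 and Lrp1 at -0.87. Lrp8 had 3 UMIs in its negative bin, a ratio of 79.6 with a counting interval of 27.1 to 387, and Lepr had none, so its high bin was at least 10.1-fold higher against a floor of 3 UMIs over both libraries (8.02-fold at the lower end of the counting interval). No member and no gene (0%) was called for the difference between the ATVs in this class by edgeR, where 273 genes had an unadjusted p below 0.05, and DESeq2 called 0 as well. In ATV-TfR, leaving out either of its pools ended the calls of Igf2r (adjusted p = 0.258 and 0.262), Lrp1 (0.0706 and 0.129) and Insr (0.227 and 0.488), and leaving out replicate 1 that of Lepr (0.181). In ATV-CD98hc the call of Igf2r was lost in 3 of 14 alternatives.

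RNA of endothelial genes rose in the same pericyte-like cells. The 12 endothelial markers were all called higher, and summed to 724 to 788 CPM in the negative and 17175 to 17266 in the high libraries of ATV-TfR, and to 725 to 884 and 18604 to 18715 in ATV-CD98hc. In control IgG they summed to 8552 CPM in the negative and 20586 to 21105 in the low libraries. Malat1, a nuclear RNA whose share can reflect the state of a cell's RNA, was at 33435 to 49543 CPM in the negative and 21783 to 22792 in the high libraries of ATV-TfR, and at 31800 to 36523 and 21471 to 24617 in ATV-CD98hc. The part of either in the changes was not tested.

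**Figure D5:**
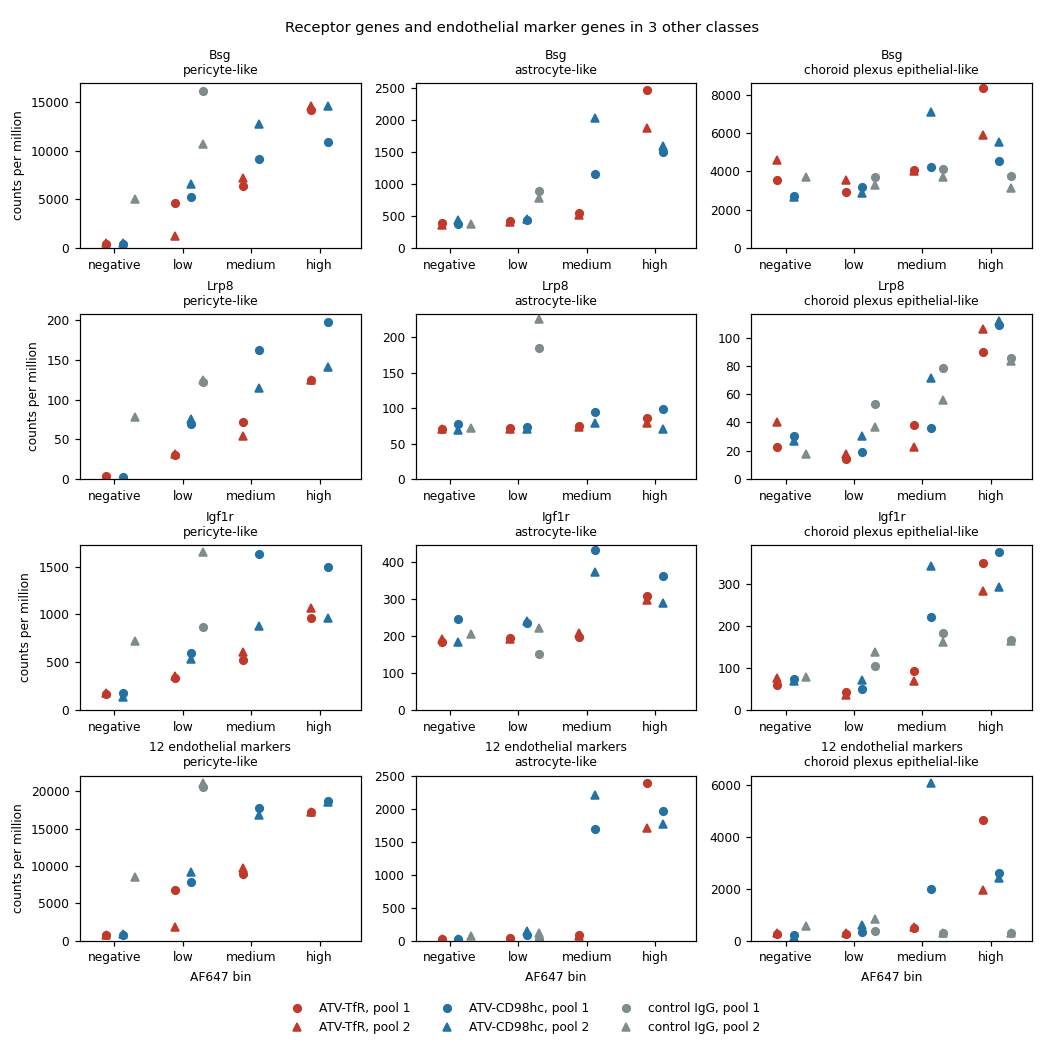
CPM of Bsg, Lrp8, Igf1r and the sum of 12 endothelial markers in pericyte-like, astrocyte-like and choroid plexus epithelial-like cells by antibody bin, with 1 point per library (colour for treatment, shape for pool). In pericyte-like cells of ATV-TfR, Bsg goes from 471 to 491 CPM in the negative to 14207 to 14553 in the high bin, and the endothelial markers from 724 to 788 to 17175 to 17266.

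The other classes with cells enough in both bins were compared in the same way. Over all classes other than endothelial-like cells, 21 of 30 pairs of member and class were called in ATV-TfR (18 higher, 3 lower, in 4 classes) and 18 of 39 in ATV-CD98hc (16 higher, 2 lower, in 5 classes). The shares of all genes called in these classes ran from 9.68% to 24.1% in ATV-TfR and from 5.78% to 30.3% in ATV-CD98hc. Some pairs had hardly any UMI in the negative bin, among them Lepr in astrocyte-like (1) and Lrp8 in border macrophage-like cells (0) of ATV-TfR. Lepr in pericyte-like cells of ATV-CD98hc also had 0. Such pairs could only be called higher, and they count in the totals above. Leaving out a pool of an ATV left 1 library in each of its bins, so pair counts of those fits are not read here.

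In astrocyte-like cells, 5 of 8 members were called in ATV-TfR (21.4% of all genes) and 2 of 8 in ATV-CD98hc (18.6%). Bsg rose from 355 to 401 CPM to 1881 to 2479 in ATV-TfR (2.63 ± 0.18, adjusted p = 1.15e-09, edgeR) and from 376 to 446 CPM to 1510 to 1600 in ATV-CD98hc (1.80, adjusted p = 2.0e-07). Igf1r rose by 0.79 and 0.48. Tmem30a rose from 92.8 to 102 CPM to 133 to 159 in ATV-TfR (0.69 ± 0.11, adjusted p = 6.44e-05). Lrp8 (0.33, adjusted p = 0.043) and Lepr, with 1 UMI in the negative bin, were the other calls in ATV-TfR. Lepr was at 0 to 0.141 CPM in the negative and 0.776 to 2.68 in the high libraries. From so low a level it could only be called higher, so its call adds no support. The call of Lrp8 was lost in 6 of 14 alternatives, that of Lepr without replicate 2 of ATV-TfR (adjusted p = 0.493), and those of Tmem30a (adjusted p = 0.055) and Igf1r (0.71, adjusted p = 0.0616) without its replicate 1. Lrp1, at a high level in these cells, was called in neither (0.27 and 0.12), but 5 of 14 alternatives called it in ATV-TfR. Bsg and Tmem30a were called for the difference between the ATVs, 2 of 8 members against 8.24% of all genes. All 12 endothelial markers were called higher beside them, and their sum went from 26.5 to 29.8 CPM to 1709 to 2388 in ATV-TfR and from 26.7 to 29.0 to 1766 to 1973 in ATV-CD98hc. Malat1 went from 64031 to 89332 CPM to 40600 to 44041 in ATV-TfR and from 62982 to 71675 to 43035 to 55477 in ATV-CD98hc. The part of either was not tested. Clusters 1 and 5 held most negative cells, and clusters 2 and 4 (ATV-TfR) or 4 and 5 (ATV-CD98hc) most high cells. In control IgG the high bin had too few of these cells to test. Its low libraries, of 21 and 45 cells, had 903 and 783 CPM of Bsg, 185 and 225 of Lrp8 and 46.3 and 34.9 of Insr. Over all 5 negative libraries, that of control IgG among them, Bsg was at 355 to 446 CPM. The negative libraries of the ATVs had 69.5 to 78.0 CPM of Lrp8 and 103 to 131 of Insr. Those mice had other genotypes, so bin, treatment and genotype cannot be told apart in these 2 ranges. Endothelial markers summed to 23.1 to 124 CPM in those low libraries, and cluster 9 held 62.1% of their cells.

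In choroid plexus epithelial-like cells, which form the barrier to cerebrospinal fluid, 4 of 8 members were called in ATV-TfR (23.5% of all genes) and 7 of 8 in ATV-CD98hc (30.3%), all higher. Igf1r led both. It went from 60.2 to 76.6 CPM to 283 to 351 in ATV-TfR (2.11, adjusted p = 4.85e-06, edgeR) and from 68.1 to 74.7 to 294 to 377 in ATV-CD98hc (1.98, adjusted p = 5.4e-07). Lrp8 (1.56 and 1.68), Insr (1.47 and 1.03) and Bsg (0.69 in both) were called in both. Without replicate 1 of ATV-TfR, Bsg (0.22, adjusted p = 0.707), Insr (1.12, adjusted p = 0.149) and Lrp8 (1.23, adjusted p = 0.0731) lost their calls there. In ATV-CD98hc, Insr lost its call in 2 of 14 alternatives, among them without replicate 1 (0.22). Bsg there lost its call in 2 of 14, among them without replicate 2 (0.48). Lrp1 was at 0.46 in ATV-CD98hc and not called, but 5 of 14 alternatives called it. Lepr (20.7 to 35.3 CPM against 84.7 to 85.0, 1.22), Tmem30a (1.04) and Igf2r (0.70) were the other calls in ATV-CD98hc. Without replicate 1 of ATV-CD98hc Tmem30a lost its call (0.64, adjusted p = 0.264), and Igf2r lost its call without either pool and in 3 of 14 alternatives in all. In ATV-TfR Tmem30a was at 0.56, which 9 of 14 alternatives called. No member was called for the difference between the ATVs in this class, where 0.0158% of all genes were, with intervals of -1.61 to -0.16 for Lepr (adjusted p = 0.607, edgeR), -1.11 to 0.15 for Tmem30a and -1.14 to 0.02 for Igf2r. In control IgG, Lrp8 was the 1 member called (2.03, adjusted p = 0.00876, edgeR, against 8.42% of all genes), with 1 negative library of 143 cells and its spread assumed from the other groups. Endothelial markers summed to 267 to 316 CPM in the negative and 1968 to 4641 in the high libraries of ATV-TfR, to 136 to 211 and 2396 to 2620 CPM in those of ATV-CD98hc, and to 295 to 311 in the high libraries of control IgG against 551 in its negative one. Cluster 7 held 93.2% to 97.9% of the negative cells, and cluster 27 held 43.3% to 65.4% of the high cells. Malat1 went from 2207 to 3595 CPM to 4467 to 5411 in ATV-TfR and from 3999 to 4439 to 6182 to 6765 in ATV-CD98hc. Astrocyte markers went from 269 to 465 CPM to 107 to 120 and from 900 to 945 to 77.7 to 133. The part of all these in the changes was not tested.

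In border macrophage-like cells of ATV-TfR, 5 of the 6 members tested were called (9.68% of all genes). Bsg went from 188 to 233 CPM to 8046 to 10751 (5.29), Igf1r rose by 2.81 and Insr by 1.51, and Lrp1 fell by 1.00. Lrp8 had no UMI in the negative bin, and in the high bin it was at least 8.77-fold higher, against a floor of 3 UMIs over both libraries (6.80-fold at the lower end of the counting interval). With no UMI on that side, Lrp8 could only be called higher. Endothelial markers summed to 116 to 129 CPM in the negative and 10370 to 12336 in the high libraries. In control IgG both moved the other way, with Bsg called lower (-2.24, adjusted p = 0.00323, edgeR; the 1 member called, against 2.54% of all genes; 1 negative library of 28 cells, its spread assumed from the other groups) and endothelial markers at 1385 CPM in the negative and 180 to 190 in the high libraries. The part of endothelial RNA in these changes was not tested.

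In microglia-like cells of ATV-CD98hc, 2 of 7 members tested were called (5.78% of all genes), Bsg (2.52) and Lrp8. The latter had 4 and 0 UMIs in the negative and 9 and 1 in the high libraries, so that its size is uncertain. Endothelial markers went from 43.8 to 49.9 CPM to 2543 to 3564, astrocyte markers from 590 to 626 to 120 to 146, and Malat1 from 16975 to 17830 to 12820 to 14214. In fibroblast-like cells of ATV-CD98hc no member was called, where 9.31% of all genes were called. In those of control IgG, 1 of 8 members was called, Igf1r, lower (-1.72, adjusted p = 0.00018, edgeR), a share near the 12.2% of all genes. The negative side was 1 library of 72 cells, with its spread assumed from the other groups. Cluster 18 held 94.4% of those cells and cluster 33 held 98.6% of the high cells. Endothelial markers summed to 1003 CPM in the negative and 321 to 365 in the high libraries, and astrocyte markers to 4565 and 490 to 636. Their part in the change was not tested.

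Genes that work with the members were followed in endothelial-like cells from lists chosen with the members. Of the ligands and binding proteins of insulin and its relatives, 8 of 10 were tested, and none rose, while ATV-TfR had 3 that fell and ATV-CD98hc had 2, where 6.52% and 4.62% of all genes were called lower. Igfbp4 fell from 94.7 to 143 CPM to 0.815 to 0.834 in ATV-TfR and Igfbp3 from 658 to 674 to 5.51 to 7.63, both proteins that bind insulin-like growth factors. In ATV-CD98hc Igfbp3 fell from 125 to 279 CPM to 4.56 to 6.66. The list had a median of -3.11 under ATV-TfR and of -2.14 under ATV-CD98hc (-3.81 with genes at 0 set to a floor of 3 UMIs), against 0.25 over all genes. In the same libraries of ATV-TfR, fibroblast markers went from 1339 to 1789 CPM to 20 to 25, and fenestrated-like cells from 31.8% to 37.3% of the class to 0%, and their part in these falls was not tested. Of the 10 genes of the signal relay, Grb14, an adaptor that binds the active insulin receptor, rose in both, from 125 to 145 CPM to 306 to 327 in ATV-TfR (1.53 ± 0.22) and by 1.03 ± 0.23 in ATV-CD98hc. It was the 1 call of the list in ATV-TfR, and Shc1, with 3 UMIs in the negative bin, was the other call in ATV-CD98hc. The median was 0.19 and 0.07.

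Among 10 other LDL receptor family genes tested, Lrp1b fell in both (-2.71 and -2.58) and none rose (6.52% and 4.62% of all genes were called lower, 5.11% and 2.24% higher), with a median of -0.26 and -0.08 (-0.48 and -0.74 with genes at 0 set to the floor). Of 12 ligands, chaperones and adaptors of that family, Serpine2 (2.19, 10 UMIs in the negative bin) and Selenop rose in ATV-TfR. Selenop, the selenium carrier that Lrp8 binds, went from 895 to 1226 CPM to 1466 to 1471 (0.78 ± 0.23, adjusted p = 0.0291, edgeR). In ATV-CD98hc Reln and Dab1 fell, with 6 and 5 UMIs in the negative bin. The median was 0.40 and 0.52 (0.24 and 0.39 with genes at 0 set to the floor).

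Of 10 P4-ATPases and Tmem30 relatives tested, 2 rose and 3 fell in ATV-TfR (5.11% and 6.52% of all genes) and 2 rose and 2 fell in ATV-CD98hc (2.24% and 4.62%), with medians of 0.05 and -0.14. Atp8b1 (-5.34 and -4.14) and Atp9a (-2.77 and -2.70) fell in both. These falls started from 27 and 24 UMIs in the negative bin under ATV-TfR, and from 5 and 12 under ATV-CD98hc. Atp8a1 (1.44 and 0.83) and Atp11b (0.92 and 1.11) were called higher in both. Of 8 partners and relatives of basigin, Slc16a1, the monocarboxylate transporter that basigin escorts, rose from 58.4 to 152 CPM to 464 to 524 in ATV-TfR (2.49 ± 0.34, adjusted p = 8.92e-06, edgeR) and from 109 to 206 to 474 to 529 in ATV-CD98hc (1.99 ± 0.35). Mmp14 fell in both, from 7 and 6 UMIs in the negative bins, and the medians were -0.22 and 0.29. None of the 9 genes of the leptin receptor relay was called in either ATV, with medians of 0.40 and 0.33.

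The genes of the receptors that the antibodies bind were called higher in both ATVs. Tfrc rose from 53.9 to 55.7 CPM to 229 to 251 in ATV-TfR (2.45 ± 0.25, adjusted p = 1.41e-07, edgeR) and by 2.08 ± 0.24 in ATV-CD98hc. Slc3a2 rose by 1.43 ± 0.23 and 1.91 ± 0.28. Endothelial markers also rose in part, with Cldn5, Itm2a, Pltp and Abcb1a called higher in both ATVs, and Vwf, a marker of larger vessels, lower in ATV-TfR (-1.54).

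For each member, the genes with the most alike levels over 78 sums of class and pool (14 classes, 13576 genes) were named by Pearson's r of log2 CPM, as a description, since the sums share libraries and cells. Bsg was most like Palmd (0.93), Tdrp (0.93) and Lsr (0.92), Igf1r like Sgms1 (0.90), Rnf125 (0.89) and Col4a3bp (0.88), and Insr like Rapgef2 (0.83), Arl15 (0.82) and Znrf1 (0.80). Lrp1 was most like Pid1 (0.88), Arhgef10l (0.85) and Mmp14 (0.84), and Lrp8 like Rgs12 (0.86), Slc38a3 (0.82) and Ccdc141 (0.80). Lepr was most like Baiap2l1 (0.80), Cgnl1 (0.78) and Plscr2 (0.77). Igf2r and Tmem30a had weaker partners, Oaz2 (0.69) and Ift57 (0.68) for the former and Slc35b1 (0.74) and Sec62 (0.71) for the latter.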

How the data were processed

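Droplet RNA counts of 23 libraries (12 groups) were used. The authors deposited UMI counts per gene and barcode, whole numbers that were not normalized. The submitters' processing notes name Cell Ranger 7.1.0, Seurat 4 and 5 and the build mm10 (GRCm38). Neither annotation release nor cell calling settings were found in the labels. Barcodes, genes and the library of each barcode stand in further deposited files (unit: other).

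Of 265025 barcodes, 249715 passed with 500 genes and 800 UMIs or more and mitochondrial UMIs of 10% or less. Scrublet (scanpy 1.11.5, Python 3.11.15) marked 16239 doublets, by percentile 94 in 7 libraries where the automatic threshold marked under 0.5% or over 25%. Cells were clustered with 2000 variable genes without the members, 50 components, 15 neighbours and Leiden resolution 1 (igraph 0.11.9). Of 37 clusters, 5 stayed unnamed. A name needed a share of 0.5 of 1 of 20 marker lists, is written with -like, and may differ from the study's.

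UMIs were summed per class and library (at least 20 cells) for bins and per class and pool for treatments, and tested with edgeR 4.0.16 (limma 3.58.1, R 4.3.3; TMM, quasi-likelihood test, its filter at 10 counts, Benjamini-Hochberg over all genes). DESeq2 1.42.0, RLE scaling, other filters, the replicate block and left-out pools were alternatives. Bins of a pool share animals, and same-pool deviations correlated at 0.144 to 0.606 in ATV-TfR and 0.0241 to 0.895 in ATV-CD98hc (6 pairs each), so the pool pairs the bins. On simulated data for the high against negative bin of ATV-TfR (15748 genes), 29% of 100 genes changed by 1 on the log2 scale and 74% of 100 changed by 2 were called. Counting intervals at 95% cover counting error only.

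The members and all lists were chosen with earlier results of these data known. The 8 members were followed in every comparison, and the text names those called in the tests it reports and only some of the others. From most lists up to 3 genes with the smallest p are named, and more from the endothelial markers and the P4-ATPases.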

Additional observations from a re-analysis of the deposited data

Results flagged for a closer look

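In astrocyte-like cells 2 members changed by different amounts between ATV-TfR and ATV-CD98hc, by a test of the difference itself (edgeR's quasi-likelihood test, Benjamini-Hochberg over 16524 genes, of which 8.24% were called). The rise of Bsg from the negative to the high bin was larger in ATV-TfR by 0.83 ± 0.25 on the log2 scale (SE, adjusted p = 0.0407). Its libraries were at 355 to 401 CPM and 1881 to 2479 CPM in ATV-TfR, and at 376 to 446 and 1510 to 1600 CPM in ATV-CD98hc, with 2 pools in each bin. The change of Tmem30a was larger in ATV-TfR by 0.56 ± 0.17 (adjusted p = 0.0426), with 92.8 to 102 CPM against 133 to 159 CPM in ATV-TfR and 89.2 to 94.2 against 101 to 117 CPM in ATV-CD98hc. High and negative libraries did not overlap in either ATV for either gene. The high libraries of both ATVs also held endothelial markers, at 1709 to 2388 CPM and 1766 to 1973 CPM, and the clusters of the high cells had different shares in the ATVs, with cluster 2 at 42.7% in ATV-TfR and 7.62% in ATV-CD98hc and cluster 4 at 22.6% and 43.3%. The part of either in these differences was not tested.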

How the results depend on the processing

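Of 167 alternatives of the counts, 153 stayed within 1.5 times. Among these 153, the difference between the ATVs (15) and the treatment comparisons (16, 16 and 17) stayed at 0 members, as in the main fit. They say little about how stable the calls are. In endothelial-like cells 5 members were called from the negative to the high bin of each ATV, where 1830 and 1079 of 15748 genes were called. Leaving out a pool of an ATV left 1 library in each of its bins. Fewer of all genes were then called for that ATV, and in some of these fits fewer members. A fall in members cannot be read apart from that share. The slopes called 5 members in each ATV, and with 1 pool left out these counts also moved. Arterial-like cells alone, added after seeing the data, gave 3 in each of these 4 comparisons. The shares of all genes there were 6.30% and 3.80% from negative to high, and 7.79% and 4.82% for the slopes. The pool as a replicate block gave 5 and 6 members, with 3039 and 1672 of all 15748 genes called against 1830 and 1079 without it, slopes 5 and 6, no call for the difference between the ATVs or the treatments, and 23 and 20 pairs in other classes. The shares of all genes for these slopes and pairs under the block are not given here. Their counts therefore cannot be read as a gain of the members. Leaving out 1 pool gave 8 to 23 pairs in ATV-TfR and 13 to 20 in ATV-CD98hc there, and 3 to 5 members highest in endothelial-like cells. The upper count of members came without control IgG replicate 2, where ependymal-like cells were too few to be ranked. It cannot be read as a change in level. Between treatments, the negative bin alone gave 3 members for each ATV against control IgG, and the mean of the 4 bins gave 2 (Igf1r and Lrp8) between the ATVs. The fit behind the latter takes the bins of a pool as separate libraries, so it does not measure the spread between pools. Lrp8 and Igf1r kept their calls in endothelial-like cells in all 15 alternatives in both ATVs.

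Reversals concerned members that were not called, and the causes were not tested (log2 changes, high minus negative bin). In endothelial-like cells of ATV-TfR, Insr was -0.077 with RLE scaling, -0.071 with DESeq2, -0.027 with a minimum count of 50, and -0.064 to 0.41 without 1 pool. Tmem30a there was -0.19 with RLE and with DESeq2, -0.14 with a minimum count of 50, -0.066 with the doublet percentile in every library and -0.060 to 0.055 without 1 pool. In pericyte-like cells of ATV-TfR, Tmem30a was -0.030 with RLE, -0.031 with DESeq2, -0.11 with a minimum count of 50, -0.041 with cells of at least 2000 UMIs and -0.11 to 0.013 without 1 pool. In those of ATV-CD98hc it was -0.035 with a minimum count of 50 and -0.024 to 0.12 without 1 pool. In astrocyte-like cells of ATV-CD98hc, Insr was 0.033 with RLE, 0.031 with DESeq2, 0.012 with a minimum count of 50, 0.019 with at least 50 cells and -0.20 to 0.23 without 1 pool. Leaving out 1 pool there gave -0.61 to 0.44 for Igf2r, -0.090 to 0.21 for Lrp8 and -6.21 to 2.61 for Lepr. In ATV-TfR it gave -0.040 to 0.17 for Insr and -0.089 to 0.53 for Igf2r in astrocyte-like cells, and -0.051 to 0.16 for Lrp1 in choroid plexus epithelial-like cells. The high against negative test of control IgG in endothelial-like cells, and that of capillary-like cells alone, could not be run for want of cells. The 211 and 145 endothelial-like cells of the ATV negative bins limit every comparison with them.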
